A study of Mus musculus with 6 samples.

Results

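The genes described here encode the receptors with which hepatocytes sense foreign compounds, together with their partners and some of their targets. They were taken by gene symbol from the deposited count table: Ahr, Ahrr, Nr1i2, Nr1i3, Rxra, Rxrb, Rxrg, Cyp2b10, Cyp3a11 and Tiparp, which are 10 of its 17275 genes, and all 10 were found there. The filter on low counts passed 9 of them, all but Ahrr.

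RNA was sequenced from hepatocytes of C57BL/6 mice that carried both Axin2rtTA and TetO-H2B-GFP, so that the Axin2 promoter drove a doxycycline-dependent activator and cells with an active promoter made a green fluorescent histone. The Axin2-positive group was the fluorescent fraction and the Axin2-negative group was the non-fluorescent fraction. Every mouse of either group carried both transgenes and drank doxycycline for 7 days. The labels give the age as postnatal day 63 in one place and as 8 weeks in another, and they do not say how many mice stood behind a library. Each group had 3 libraries, and each of 3 sequencing indices occurred once in either group, which gives the replicate numbers 1, 2 and 3. Axin2 is itself a Wnt target, and expression of many enzymes of drug metabolism is known to be concentrated in hepatocytes around the central vein, where Wnt signalling is high.

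The aryl hydrocarbon receptor, encoded by Ahr, sits in the cytoplasm with heat shock protein 90 until a ligand such as a dioxin or a plant indole sends it to the nucleus, where it pairs with Arnt and binds DNA. Nr1i3 encodes the constitutive androstane receptor (CAR) and Nr1i2 the pregnane X receptor (PXR), nuclear receptors that bind DNA as heterodimers with a retinoid X receptor (RXR), the product of Rxra, Rxrb or Rxrg. In mouse liver, Cyp2b10 is the classic target of CAR and Cyp3a11 that of PXR, while Tiparp and Ahrr are targets of the aryl hydrocarbon receptor that act back on it.

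RefSeq promoter windows (GRCm38.p6) were found for 9 of the 10 genes, in 12 windows. Those of Ahrr, Cyp3a11 and Cyp2b10 are shown because these are targets of the 3 kinds of sensor. The windows cover the 250 bases before the annotated start, less the bases that GENCODE places in an exon, and are written 5′ to 3′ on the gene's strand. Capitals mark the core of the dioxin response element, GCGTG, or the nuclear receptor half-sites AGGTCA and AGTTCA, each on either strand (CACGC and TGAACT are the reverse strand).
Ahrr, chr13:74292332-74292581, minus strand: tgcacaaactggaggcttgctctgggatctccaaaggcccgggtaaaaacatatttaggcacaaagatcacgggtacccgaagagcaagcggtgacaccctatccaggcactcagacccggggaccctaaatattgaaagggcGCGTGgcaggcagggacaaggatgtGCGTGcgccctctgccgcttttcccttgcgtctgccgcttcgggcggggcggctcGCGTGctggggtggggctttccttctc
Cyp3a11, chr5:145879965-145880104, minus strand: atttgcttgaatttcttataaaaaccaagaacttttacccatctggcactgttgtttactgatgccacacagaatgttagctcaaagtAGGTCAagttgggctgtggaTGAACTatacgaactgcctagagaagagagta
Cyp2b10, chr7:25897408-25897619, plus strand: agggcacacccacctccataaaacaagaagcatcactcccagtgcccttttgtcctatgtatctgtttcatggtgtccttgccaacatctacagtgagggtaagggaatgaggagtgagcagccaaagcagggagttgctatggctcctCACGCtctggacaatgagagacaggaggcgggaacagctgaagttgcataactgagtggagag

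The Ahrr window held the core GCGTG 3 times, starting 107, 82 and 27 bases before the start site. The Cyp3a11 window held 1 AGGTCA and 1 reverse AGTTCA, starting 162 and 142 bases before the start. The full window of Cyp2b10 held 2 copies of GCGTG, 1 of them in the exonic stretch not shown. Over all 32851 RefSeq windows of 250 bases, 28.2% held GCGTG, 14% held AGGTCA and 11.8% held AGTTCA. Direct repeats of AGTTCA spaced by 4 bases were found in 3 of all windows and by 3 bases in 0, and neither occurred in a window of these genes. The known phenobarbital-responsive enhancer of Cyp2b10 lies farther upstream than the window. A match is a stretch of letters, and binding was not measured here.

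Before any comparison, the libraries of replicate 1 have to be set apart. The reporter's own gene Axin2 stood at 2.40, 22.6 and 24.2 CPM (reads scaled to the library's total and for composition) in libraries labelled positive 1, 2 and 3, against 3.04, 3.75 and 5.75 CPM in those labelled negative 1, 2 and 3, so the library labelled positive 1 went against its label. Over genes with more than 60 reads in the 6 libraries together, the median chi-square per gene between labelled positive 1 and labelled negative 1 was 1.16, where pure sampling gives 0.455 and the other 14 pairs of libraries gave 9.51 to 27.9. These 2 libraries were thus the most alike of all pairs, and results are given over all 6 libraries and over replicates 2 and 3 alone. Total reads per library were 75882611 to 103386648. Ddx3y, on the Y chromosome, had 7164 reads in positive 2 and 6759 in negative 2, and 0 to 3 in the other 4 libraries, while Xist had 4 and 5 in replicate 2 and 32242 to 52151 elsewhere, which marks replicate 2 as male and the others as female.

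The question is which of these sensors and targets differ in level with Axin2 promoter activity. Fitted over all 6 libraries without the replicate number, edgeR's quasi-likelihood test called 0 of the 9 tested genes, as it did 0% of the 12343 genes tested in either direction. At an unadjusted p under 0.05 it listed 0 of the 9, beside 1.34% of all tested genes higher and 0.924% lower. At that level limma-voom listed 0 of the 9, and DESeq2, which also tested Ahrr, listed 1 of 10 (Cyp3a11). The share of all genes at that level in DESeq2 and limma-voom is not given. DESeq2 and limma-voom also called 0 after adjustment. The 3 positive values lay wholly above or below the 3 negative ones for 0 of the 9 genes, beside 3.44% of all genes above and 3.77% below. With CPM on raw totals, Nr1i3 lay wholly above and Rxrb wholly below, and the share of all genes on that scale is not given. For Nr1i3 the closest values across groups were those of replicate 1. Labelled positive 1 had 14697 of 103386648 reads and labelled negative 1 had 14471 of 101814611.

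With the replicate number as a block, 0 of the 9 genes passed after adjustment, and Ahr, Nr1i3 and Cyp3a11 were higher at an unadjusted p under 0.05, beside 4.36% of all genes higher, and 0 were lower, beside 4.81%. In the fit of replicates 2 and 3 alone, with the block, Ahr, Nr1i3 and Cyp3a11 rose and Cyp2b10 fell (3 and 1 of 9, beside 3.43% of 12385 genes higher and 4.01% lower). Tested there against a fold of 1.5, Cyp3a11 remained higher and Cyp2b10 lower, beside 0.791% and 0.888% of all genes. This fit of 2 pairs has 1 residual degree of freedom, and replicate 1 was left out because its libraries hardly differed, so its calls are no independent evidence that the groups differ. The fits without replicate 2 or without replicate 3 called 0 of the 9 genes. Leaving out only the library labelled positive 1, with no block, called 0 of the 9 as well, beside 0.00796% of all genes higher and 0.0398% lower. Of the 9 genes, 3 were higher and 5 lower in both replicates 2 and 3, beside 35.3% and 36.5% of all genes. A difference of at least log2 1 in both was seen for 1 higher and 1 lower gene, Cyp3a11 and Cyp2b10, beside 1.33% and 2.97%.

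**Figure D1:**
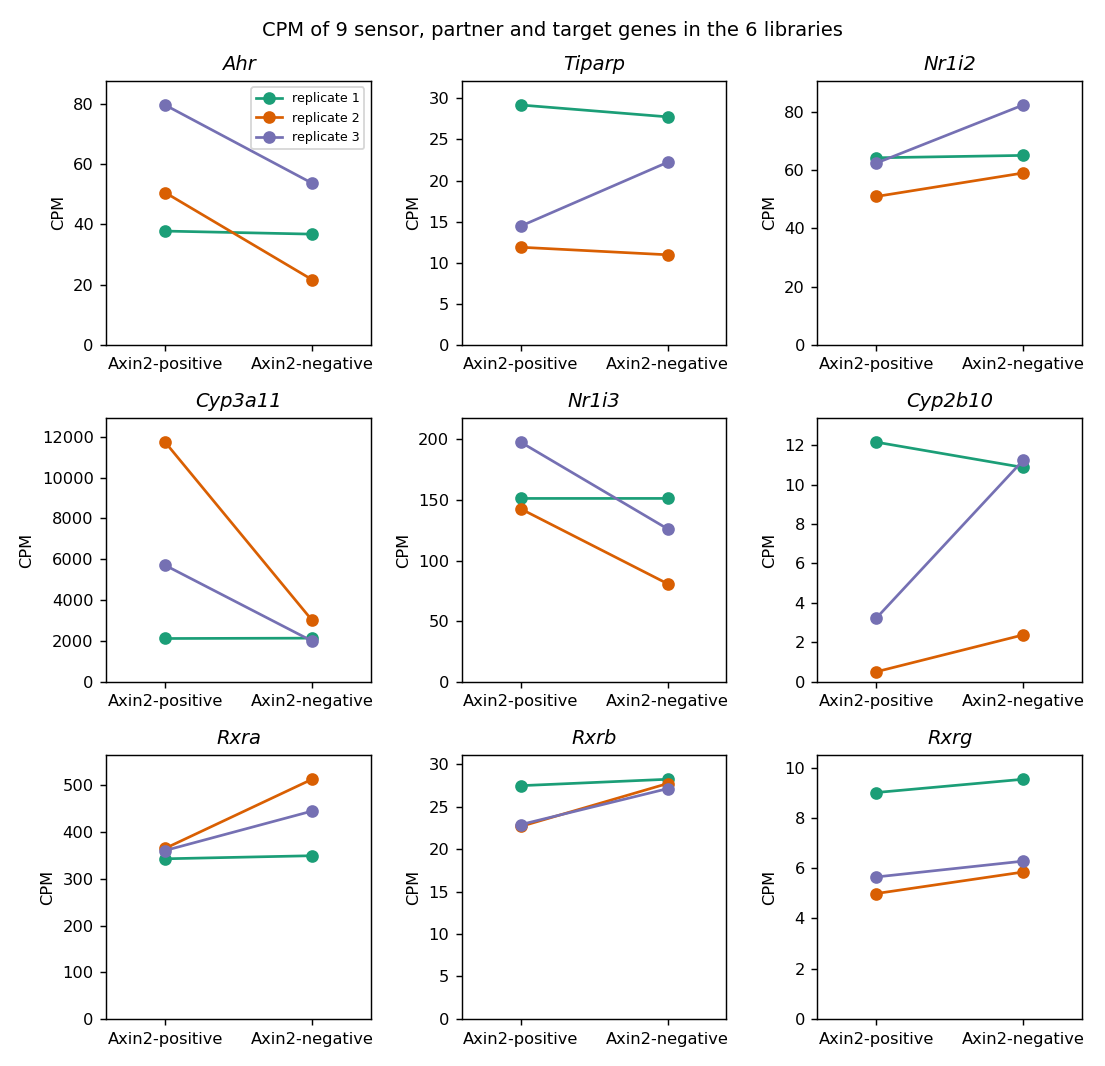
CPM (vertical axes from 0) of the 9 genes that passed the filter, in libraries labelled Axin2-positive (left) and Axin2-negative (right); each line joins the libraries of 1 replicate number. The lines of replicate 1 are nearly flat in every panel, while Cyp3a11 in replicates 2 and 3 stands at 11733 and 5705 CPM on the left against 3012 and 1994 CPM on the right.

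Among the receptors, Ahr (chromosome 12, 35497974 to 35535038, GRCm38) stood at 37.8, 50.6 and 79.7 CPM in libraries labelled positive 1, 2 and 3, against 36.8, 21.6 and 53.7 CPM in those labelled negative. Each positive library lay above its partner, but the groups overlapped, because the negative library of replicate 3 exceeded the positive ones of replicates 1 and 2. The fold within a replicate was 1.03, 2.34 and 1.48. Over 6 libraries the log2 fold change of Ahr was 0.58 (SE 0.40, edgeR adjusted p = 0.999), and over 2 pairs it was 0.90 (SE 0.16, adjusted p = 0.0412). It did not pass against a fold of 1.5 (adjusted p = 0.361). Without the library labelled positive 3 the 6 library value was 0.24, and without the library labelled negative 3 it was 0.94. The authors' deposited table listed 11.4 FPKM for the single Ahr transcript in the Axin2-positive group and 7.33 FPKM in the Axin2-negative group, with a p of 0.00805 and a q of 0.516.

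Nr1i3 (chromosome 1, 171213970 to 171220701), which encodes CAR, was at 151, 143 and 198 CPM in libraries labelled positive 1, 2 and 3, against 151, 80.9 and 126 CPM in those labelled negative. Replicates 2 and 3 were higher in the positive library by 1.76 and 1.57 times, and replicate 1 did not separate. The log2 fold change of Nr1i3 was 0.46 (SE 0.26, adjusted p = 0.999) over 6 libraries and 0.74 (SE 0.11, adjusted p = 0.0248) over 2 pairs, where it was not called against a fold of 1.5 (adjusted p = 0.520). Exons of Nr1i3 overlap those of Tomm40l, a relative of a mitochondrial import gene, on the other strand over up to 2585 bases. Tomm40l was at 93.2, 61.7 and 125 CPM in positive libraries, against 94.8, 43.5 and 85.98 CPM in negative ones, and it rose too in the fit of 2 pairs (log2 fold change 0.52, adjusted p = 0.0355). Whether reads were counted by strand is not given, so the part of Tomm40l in the counts of Nr1i3 was not tested. The authors' deposited table listed 3 Nr1i3 transcripts, and the most abundant made up 69.2% of their summed FPKM in the Axin2-positive group and 68.8% in the Axin2-negative group.

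Nr1i2 (chromosome 16, 38248323 to 38294824), which encodes PXR, gave 64.3, 51.0 and 62.5 CPM in libraries labelled positive 1, 2 and 3, against 65.1, 59.1 and 82.5 CPM in those labelled negative. Every positive value lay below its partner's, by 0.987, 0.863 and 0.758 times, while the groups overlapped. The log2 fold change of Nr1i2 was -0.22 (SE 0.16, adjusted p = 0.999) over 6 libraries and -0.31 (SE 0.09, adjusted p = 0.112) over 2 pairs, so PXR's gene did not pass in either. Its level per length relative to that of Nr1i3 can be read within a library. Nr1i3 stood at 1.36, 1.62 and 1.83 times the CPM per kb of Nr1i2 in positive libraries 1, 2 and 3, against 1.34, 0.792 and 0.884 times in the negative ones. By this measure the order of the 2 receptors turned only in negative libraries 2 and 3, where Nr1i2 was higher. It rests on merged exon lengths of 4414 bases for Nr1i3 and 2553 bases for Nr1i2. In the authors' deposited table the main Nr1i3 transcript exceeded the main Nr1i2 one in both groups. These were at 70.8 and 19.4 FPKM in the Axin2-positive group, against 50.8 and 22.4 FPKM in the Axin2-negative group.

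The RXR genes supply the shared partner. Rxra (chromosome 2, 27676440 to 27762957) was at 343, 365 and 361 CPM in libraries labelled positive 1, 2 and 3, against 349, 513 and 445 CPM in those labelled negative. Its positive values lay close together, and negative libraries 2 and 3 stood above all of them, with negative library 1 among them. The log2 fold change of Rxra was -0.29 (SE 0.17, adjusted p = 0.999) over 6 libraries and -0.40 (SE 0.11, adjusted p = 0.0999) over 2 pairs. Rxrb (chromosome 17, 34031812 to 34038399) held 27.5, 22.7 and 22.9 CPM against 28.2, 27.7 and 27.1 CPM in the negative libraries 1, 2 and 3. Only the positive library of replicate 1 reached the range of the negative ones, and the log2 fold change of Rxrb was -0.19 (SE 0.10, adjusted p = 0.999) and -0.27 over 2 pairs (SE 0.08, adjusted p = 0.125). Rxrg (chromosome 1, 167598384 to 167639623) held 9.01, 4.99 and 5.65 CPM against 9.54, 5.85 and 6.28 CPM. It followed the replicate number more than the label, with log2 fold changes of -0.14 (SE 0.30, adjusted p = 0.999) and -0.19 over 2 pairs (SE 0.15, adjusted p = 0.469). Per kb of exon, Rxra made up 85.3%, 89.5% and 88.9% of the summed RXR level in positive libraries, against 85.0%, 90.8% and 89.5% in negative ones.

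The authors' deposited table splits Rxrb into 4 transcripts. The most abundant was at 4.98 FPKM in the Axin2-positive group and 6.35 FPKM in the Axin2-negative group, and all 4 had a q of 0.9995. Of 17 transcripts of the 10 genes in that table, 15 had the status OK and 0 were marked significant. Of all 30165 transcripts, 13843 had the status OK and 97 were marked significant. Nr1i2 had 2 transcripts there, and the main one made up 96.1% of its FPKM in the Axin2-positive group and 96.0% in the Axin2-negative group.

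**Figure D2:**
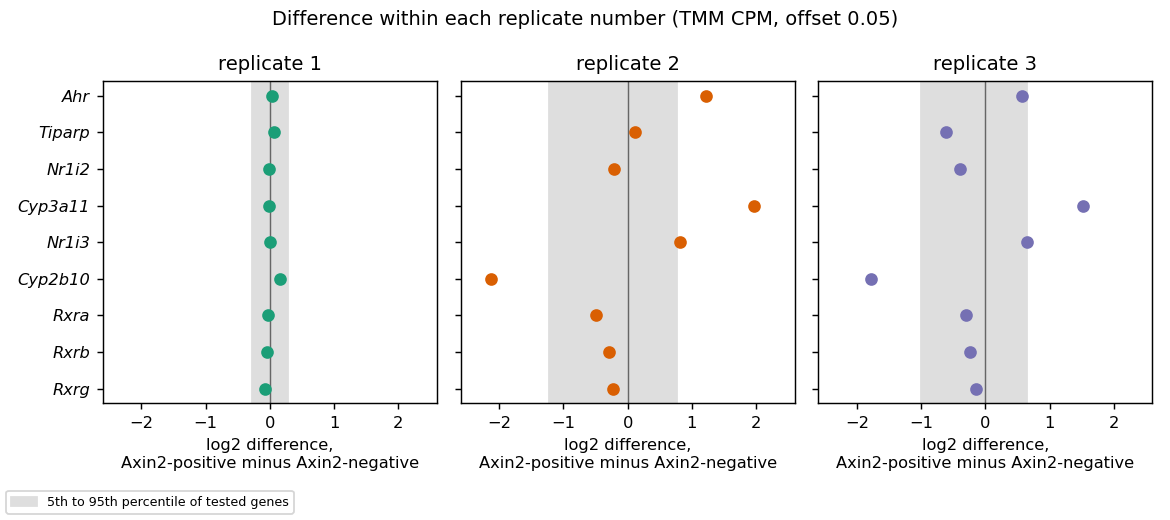
Log2 difference in CPM (offset 0.05 CPM) between the Axin2-positive and Axin2-negative library of replicates 1, 2 and 3 for each gene; grey bands span the 5th to 95th percentile of the 12343 tested genes. Cyp3a11 lies at 1.96 and 1.52 and Cyp2b10 at -2.12 and -1.79 in replicates 2 and 3, outside the bands, and all 9 genes lie near 0 in replicate 1.

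Cyp3a11 and Cyp2b10, the targets of PXR and CAR, moved in opposite directions in the fit of 2 pairs. Cyp3a11 (chromosome 5, 145854426 to 145879964), an abundant cytochrome P450 with many drug substrates, was at 2119, 11733 and 5705 CPM in libraries labelled positive 1, 2 and 3, against 2136, 3012 and 1994 CPM in those labelled negative. Positive libraries 2 and 3 exceeded all negative ones, and positive library 1 lay among them. The fold within replicates 1, 2 and 3 was 0.992, 3.90 and 2.86. The log2 fold change of Cyp3a11 was 1.45 (SE 0.60, adjusted p = 0.999) over 6 libraries and 1.74 (SE 0.13, adjusted p = 0.00568) over 2 pairs, and against a fold of 1.5 it passed there as well (adjusted p = 0.0124). The 6 library value was 0.72 without the library labelled positive 2. Reads of Cyp3a11 made up 1.19% of all reads in positive library 2 and 0.199% in positive library 1, against 0.201% to 0.319% in negative libraries.

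In replicate 2, 3.30% of tested genes differed at least as much as Cyp3a11 in either direction, and in replicate 3 it was 3.41%. For Cyp2e1, a cytochrome of pericentral hepatocytes, the log2 difference was 0.00, 1.93 and 1.47 in replicates 1, 2 and 3, and for Cyp3a11 it was -0.01, 1.96 and 1.52. Axin2 itself differed by -0.34, 2.57 and 2.06, and Glul, the pericentral glutamine synthetase, by 0.00, 2.85 and 3.14. The periportal genes Cyp2f2 and Hal gave -0.03, -8.44 and -6.03, and -0.01, -5.11 and -3.79.

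Cyp2b10 (chromosome 7, 25897620 to 25926624) was at 12.2, 0.507 and 3.22 CPM in libraries labelled positive 1, 2 and 3, against 10.9, 2.38 and 11.2 CPM in those labelled negative. Positive libraries 2 and 3 were each below their partner, yet negative library 2 lay below positive library 3, so the groups overlapped. Positive library 2 rested on 40 reads. The fold within replicates 1, 2 and 3 was 1.12, 0.229 and 0.290. The log2 fold change of Cyp2b10 was -0.62 (SE 1.1, adjusted p = 0.999) over 6 libraries and -1.98 (SE 0.20, adjusted p = 0.0104) over 2 pairs, where it also passed against a fold of 1.5 (adjusted p = 0.0238). Without the library labelled positive 1 the 6 library value was -2.13, and without the library labelled positive 2 it was -0.09. With the block it was -1.22 (SE 0.50, adjusted p = 0.450).

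Cyp2b10 and Cyp3a11 each have close paralogs, which makes their counts uncertain wherever reads could be shared. Cyp2b9 was at 624, 0.709 and 524 CPM in positive libraries 1, 2 and 3, against 630, 0.199 and 696 CPM in negative ones, and Cyp2b13 at 290, 0.0380 and 231 CPM against 281, 0.0498 and 449 CPM. Both are known as female-biased genes of mouse liver, and both were near 0 in replicate 2, whose libraries were male. Cyp2b10 made up 1.31%, 40% and 0.425% of the reads of the Cyp2b genes listed in positive libraries 1, 2 and 3, against 1.18%, 90.5% and 0.971% in negative ones. In replicate 2 the family had 100 reads in the positive and 211 in the negative library, of which Cyp2b9 held 56 and 16 and Cyp2b10 held 40 and 191. The part of shared reads in these values was not tested. Over 2 pairs Cyp2b13 fell (log2 fold change -0.92, SE 0.15, adjusted p = 0.0330), and Cyp2b9 gave 0.21 (SE 0.45, adjusted p = 0.799). Over 6 libraries neither was called (-0.49 for Cyp2b13 and -0.21 for Cyp2b9, adjusted p = 0.999 for both), so the sign for Cyp2b9 differed between the fits.

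Of 6 tested relatives of Cyp3a11, 5 rose over 2 pairs and 0 fell, beside 3.43% of all genes higher and 4.01% lower. Their median log2 fold change was 1.64 over 2 pairs, against -0.00 for all tested genes. Over 6 libraries 0 of the 6 were called, with 1 higher at an unadjusted p under 0.05 and 0 called by DESeq2 or limma-voom. Cyp3a25 was at 666, 1365 and 1018 CPM in positive libraries 1, 2 and 3, against 638, 801 and 613 CPM in negative ones (log2 fold change over 2 pairs 0.75, SE 0.10, adjusted p = 0.0208). Cyp3a59 was at 47.4, 99.2 and 87.9 CPM against 48.1, 26.6 and 47.0 CPM (log2 fold change 1.399, SE 0.24, adjusted p = 0.0355). Both stood higher in positive libraries 2 and 3 than in any negative library, as Cyp3a11 did. Cyp3a41a, one of the female-biased members, was at 145, 0.139 and 778 CPM against 115, 0.0124 and 120 CPM, with a log2 fold change over 2 pairs of 2.73 (SE 0.16, adjusted p = 0.00458), and in replicate 2 it rested on 11 reads and 1 read. Cyp3a16 and Cyp3a44, named after their values were seen, were the others that rose, and the one not called was Cyp3a13. In replicate 2 Cyp3a16 rested on 25 reads in the positive and 11 in the negative library. Cyp3a44 rested there on 74 and 15 reads. Over 6 libraries the log2 fold changes were 0.57 for Cyp3a25, 0.95 for Cyp3a59 and 1.98 for Cyp3a41a, each with an adjusted p of 0.999. Cyp3a11 made up 66.8%, 88.2% and 69.2% of the family's reads in positive libraries, against 68.3%, 76.6% and 67.3% in negative ones.

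**Figure D3:**
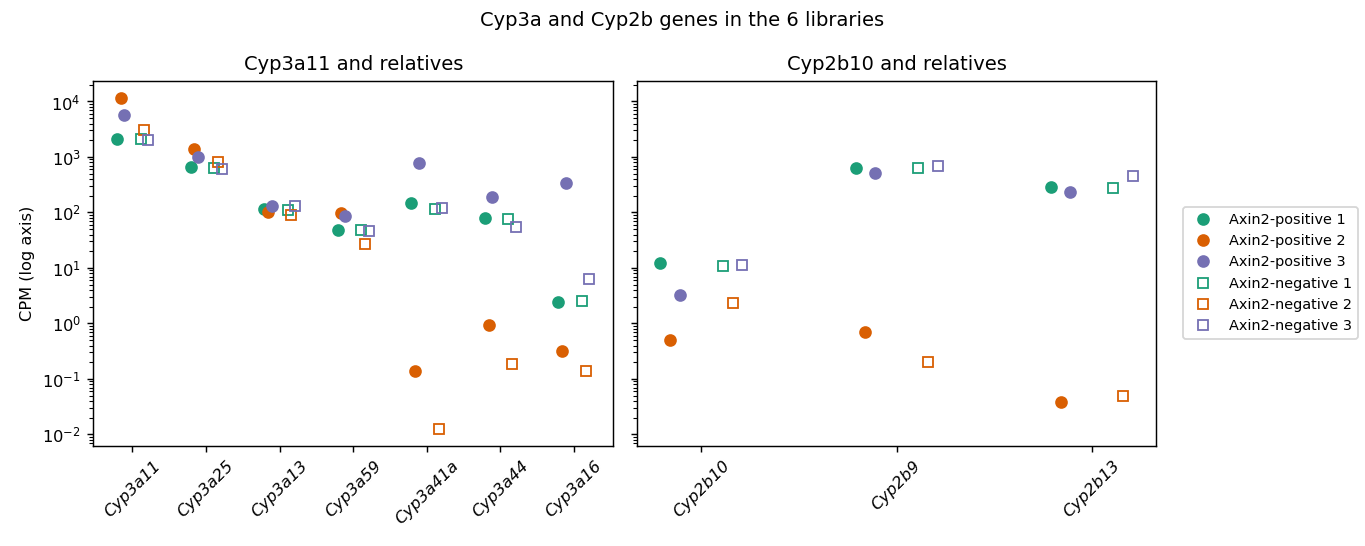
CPM on a log axis for Cyp3a11 and 6 relatives and for Cyp2b10 and 2 relatives, with filled circles for the Axin2-positive and open squares for the Axin2-negative libraries, coloured by replicate; heights of different genes are not per length. Cyp2b9, Cyp2b13, Cyp3a41a, Cyp3a44 and Cyp3a16 stand below 1 CPM in both libraries of replicate 2, while Cyp3a25 is at 1365 and 1018 CPM in positive libraries 2 and 3 against 613 to 801 CPM in the other 4 libraries.

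Of the aryl hydrocarbon receptor's own targets, Tiparp (chromosome 3, 65528410 to 65555518), which encodes an ADP-ribosyltransferase that represses the receptor, was at 29.2, 11.9 and 14.4 CPM in libraries labelled positive 1, 2 and 3, against 27.8, 10.9 and 22.2 CPM in those labelled negative. Its level followed the replicate number more than the label, and only replicate 3 was lower in the positive library. The log2 fold change of Tiparp was -0.13 (SE 0.46, adjusted p = 0.999) over 6 libraries and -0.26 (SE 0.19, adjusted p = 0.433) over 2 pairs. An opposite-strand gene whose exons overlap Tiparp, 4931440P22Rik, held 2 to 26 reads per library. Ahrr (chromosome 13, 74211118 to 74292331), the repressor that competes for Arnt, held 0, 0 and 0 reads in positive libraries 1, 2 and 3, and 1, 1 and 0 reads in negative ones. A count of 0 there allows up to 0.0290, 0.0385 and 0.0360 CPM before that scaling, so no difference in Ahrr was detectable at this depth. These limits cover counting error only.

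Levels of different genes were compared as CPM per kb of merged exon, over the 6 libraries. Cyp3a11 was highest, at a median of 505 CPM per kb (392 to 2304), and Rxra followed at 66.4 (62.8 to 93.9). Nr1i3 at 33.3 (18.3 to 44.8) and Nr1i2 at 24.8 (20.0 to 32.3) kept this order in 4 of 6 libraries. Ahr at 7.17 (3.51 to 12.9) and Rxrb at 6.87 (5.71 to 7.11) stood in this order in 3 of 6 and were not separated. Tiparp, at 4.21 (2.51 to 6.70), exceeded Cyp2b10, at 3.34 (0.240 to 5.75), in 5 of 6, and Cyp2b10 exceeded Rxrg, at 2.64 (2.17 to 4.15), in 3 of 6. The remaining neighbours kept their order by this measure in all 6 libraries, with Ahrr last. The order depends on merged exon length as the divisor. In the authors' deposited table Rxra was at 74.1 FPKM in the Axin2-positive group and 92.3 FPKM in the Axin2-negative group. The 3 Nr1i3 transcripts were at 70.8, 15.96 and 15.6 FPKM against 50.8, 12.3 and 10.7 FPKM. With these added up, Nr1i3 lay above Rxra in the Axin2-positive group and below it in the Axin2-negative group.

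Genes with the most similar profile to each receptor were read from Pearson's r of log2 CPM over the 6 libraries, which share replicate numbers in pairs. For Ahr these were Ttpa (r = 0.998), Slc16a7 (0.996) and Prdm9 (0.995). Ttpa encodes the α-tocopherol transfer protein of hepatocytes and was at 461, 549 and 780 CPM in positive libraries 1, 2 and 3, against 452, 294 and 575 CPM in negative ones. For Nr1i2 they were Maff (0.999), Itgal (0.997) and Prex2 (0.994), and for Nr1i3 Ifit3 (0.996), Cdc42se1 (0.993) and Cd302 (0.992). Itgal, an integrin gene of leukocytes, stood at 0.268, 0.0507 and 0.209 CPM against 0.293, 0.187 and 1.16 CPM, near the limit of detection. The r values above are the highest among 12343 tested genes, and how high unrelated genes reach over 6 libraries was not tested.

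Partners of the aryl hydrocarbon receptor were tested for 5 of 6 genes. Over 6 libraries 0 were called (also 0 at an unadjusted p under 0.05 and 0 by DESeq2 or limma-voom). Over 2 pairs, beside 3.43% of all genes higher and 4.01% lower, 1 rose and 0 fell. That was Hsp90aa1, an isoform of its chaperone, at 119, 242 and 162 CPM in positive libraries 1, 2 and 3, against 116, 139 and 104 CPM in negative ones (log2 fold change over 2 pairs 0.72, SE 0.11, adjusted p = 0.0279). Hsp90ab1, the other isoform, gave 719, 958 and 919 CPM against 716, 736 and 767 CPM (0.32, SE 0.10, adjusted p = 0.126). Over 6 libraries Hsp90aa1 gave 0.54 and Hsp90ab1 gave 0.23, each with an adjusted p of 0.999.

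Other targets of the receptor were tested for 7 of 9 genes, with 0 called over 6 libraries (1 higher at an unadjusted p under 0.05, 0 by DESeq2 or limma-voom). Over 2 pairs 2 rose and 1 fell, beside 3.43% of all genes higher and 4.01% lower. Their median was 0.51 for the 7 tested genes, against -0.00 for all tested genes. Cyp1a2, which metabolises caffeine and aromatic amines, was at 182, 2177 and 1239 CPM in positive libraries 1, 2 and 3, against 183, 368 and 296 CPM in negative ones (2.32, SE 0.15, adjusted p = 0.00530). Xdh, xanthine dehydrogenase, was at 146, 284 and 254 CPM against 150, 173 and 183 CPM (0.60, SE 0.12, adjusted p = 0.0464). Over 6 libraries Cyp1a2 gave 2.09 and Xdh gave 0.44, each with an adjusted p of 0.999.

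The list of other CAR and PXR targets had 24 genes, all tested. Over 6 libraries 0 were called (2 higher and 0 lower at an unadjusted p under 0.05, 0 by DESeq2 or limma-voom). Over 2 pairs 5 rose and 0 fell, beside 3.43% of all genes higher and 4.01% lower, with a median of 0.25. At an unadjusted p under 0.05 there were 10 higher and 3 lower, and the share of all genes at that level is not given. Among those lower at that level, and named after their values were seen, were the transporter genes Abcc3 (log2 fold change -1.21, adjusted p = 0.0581) and Slco1a4 (-0.61, adjusted p = 0.0525). Gstm3, a glutathione transferase, was at 10.1, 449 and 125 CPM in positive libraries 1, 2 and 3, against 8.05, 20.6 and 14.9 CPM in negative ones (3.76, SE 0.35, adjusted p = 0.00868). Cyp2c55 was at 2.71, 155 and 14.5 CPM against 3.15, 7.73 and 3.39 CPM (3.29, SE 0.54, adjusted p = 0.0333). Close paralogs make both counts uncertain, and both were far higher in positive library 2 than in any other.

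Aldh1a1, a retinaldehyde dehydrogenase, was at 667, 2885 and 1818 CPM in positive libraries 1, 2 and 3, against 668, 1077 and 578 CPM in negative ones (1.54, SE 0.11, adjusted p = 0.00559). The other 2 that rose were Cyp2c37 and Abcc4, named after their values were seen. Cyp2c29 was at 993, 5486 and 1119 CPM against 1034, 1178 and 1057 CPM and stood apart in positive library 2 alone (1.15, SE 0.50, adjusted p = 0.219). Over 6 libraries the log2 fold changes were 3.75 for Gstm3, 3.60 for Cyp2c55, 1.21 for Aldh1a1 and 1.22 for Cyp2c29, each with an adjusted p of 0.999.

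Of 13 coregulators and upstream factors of CAR and PXR, 0 were called over 6 libraries (0 at an unadjusted p under 0.05, 0 by DESeq2 or limma-voom). Over 2 pairs 0 rose and 1 fell, beside 3.43% of all genes higher and 4.01% lower, with a median of -0.15. The one that fell, named after its values were seen, was Ppargc1a, a coactivator of fasting metabolism, at 10.2, 1.55 and 9.33 CPM in positive libraries 1, 2 and 3, against 10.6, 7.39 and 20.6 CPM in negative ones (log2 fold change -1.63, SE 0.27, adjusted p = 0.0347). Hnf4a, a factor that drives Nr1i2 and Nr1i3 in hepatocytes, gave 604, 537 and 624 CPM against 608, 652 and 709 CPM (-0.23, SE 0.11, adjusted p = 0.233). Cebpa, another hepatocyte transcription factor, gave 303, 273 and 351 CPM against 311, 372 and 447 CPM (-0.40, SE 0.11, adjusted p = 0.0913). Ncoa1, a coactivator of nuclear receptors, gave 22.2, 22.2 and 22.2 CPM against 22.4, 27.25 and 25.8 CPM (-0.26, SE 0.09, adjusted p = 0.138). Over 6 libraries Hnf4a gave -0.16, Cebpa -0.29 and Ncoa1 -0.18, each with an adjusted p of 0.999, and Ppargc1a gave -0.87. Of 11 tested genes for other RXR partners, 0 were called over 6 libraries (0 at an unadjusted p under 0.05, 0 by DESeq2 or limma-voom) and 0 over 2 pairs. At an unadjusted p under 0.05 over 2 pairs, 1 was higher and 1 lower, again without a share of all genes. Ppara encodes a fatty acid receptor and gave 286, 172 and 262 CPM in positive libraries 1, 2 and 3, against 280, 195 and 251 CPM in negative ones (log2 fold change -0.06 over 2 pairs, adjusted p = 0.787, and -0.01 over 6 libraries). Nr1h4, the bile acid receptor gene, gave 134, 122 and 139 CPM against 131, 99.9 and 115 CPM (0.28 over 2 pairs, adjusted p = 0.139, and 0.19 over 6 libraries). Rara, a retinoic acid receptor gene, gave 16.99, 18.8 and 17.4 CPM against 18.5, 20.2 and 20.5 CPM (-0.16 over 2 pairs, adjusted p = 0.325, and -0.15 over 6 libraries).

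**Figure D4:**
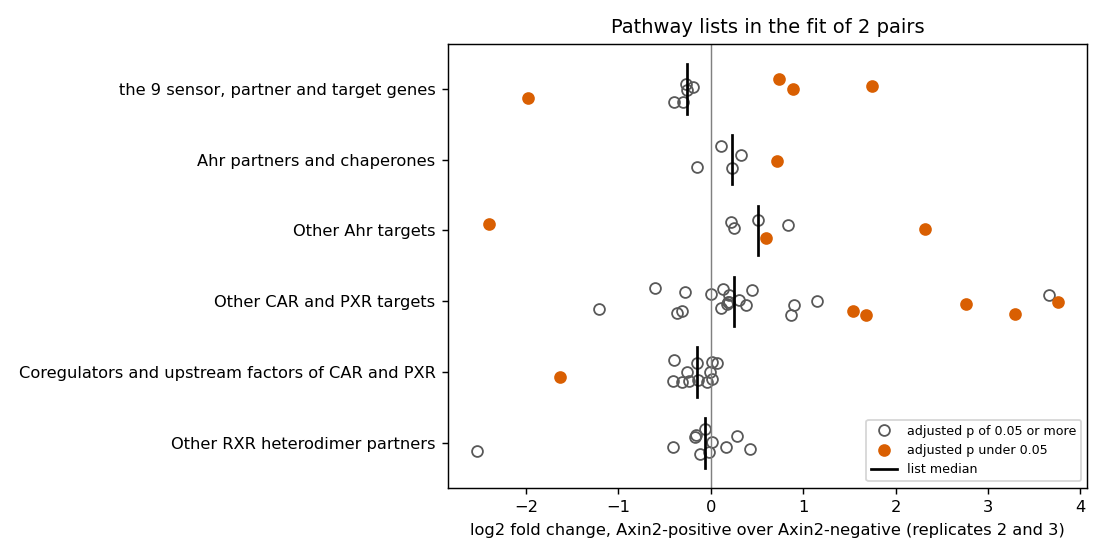
Log2 fold change over replicates 2 and 3 (Axin2-positive over Axin2-negative) of each tested gene in 6 lists; filled points passed an adjusted p of 0.05, open ones did not, and bars mark list medians. CAR and PXR targets hold 5 filled points, all above 0, and other RXR partners hold 0, beside 3.43% of all genes called higher and 4.01% lower.

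Markers of other liver cells were counted from fixed lists, and over 6 libraries 0 were called in any of these lists by edgeR (0 also at an unadjusted p under 0.05), DESeq2 or limma-voom. The summed level of the 9 Kupffer cell genes measured, of 10 listed, was 0.380 to 4.12 CPM in positive libraries and 3.18 to 27.5 CPM in negative ones, highest in negative library 3, and C1qb and Marco were at 0 in positive library 2. Over 2 pairs 3.43% of all genes were called higher and 4.01% lower, which is the background for each marker list. In that fit 6 of the 7 tested Kupffer genes fell, among them Clec4f (log2 fold change -2.82, adjusted p = 0.0116) and Cd5l (-3.05, adjusted p = 0.0106). Endothelial genes (10 of 10 measured) summed to 1.98 to 58.2 CPM against 6.06 to 81.7 CPM, with the low values in replicate 2, where Cdh5 was at 0 in the positive library. Over 2 pairs 0 of 10 were called, with 4 lower at an unadjusted p under 0.05, a level for which the share of all genes is not given. Stellate genes (9 of 9) summed to 0.621 to 6.86 CPM against 1.46 to 8.78 CPM, bile duct genes (6 of 6) to 0.174 to 11.1 CPM against 2.71 to 11.6 CPM, and lymphocyte genes (3 of 4) to 0.0253 to 0.0720 CPM against 0.0249 to 0.479 CPM. Over 2 pairs 0 of 5 tested stellate genes were called, and both tested bile duct genes, Sox9 and Spp1, fell, while no lymphocyte gene passed the filter. The hepatocyte gene Alb stood at 60076 to 156336 CPM over all 6 libraries. Of 5 tested hepatocyte genes 0 were called over 6 libraries, and over 2 pairs 0 rose and 2 fell, namely Ahsg (-0.61, adjusted p = 0.0163) and Apoa1 (-0.48, adjusted p = 0.0382), the second named after its values were seen. Ttr gave 0.31 (adjusted p = 0.0950). The part of these markers in the values of Ahr, Tiparp, Rxrg and the other genes was not tested, and in bulk RNA fewer cells of a type and less RNA per cell cannot be told apart.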

How the data were processed

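The authors deposited raw read counts per gene symbol for 6 libraries, and FPKM values per transcript with 1 value per group and with p-values and q-values from Cuffdiff 2.2.2. The submitters' processing notes name TopHat2 2.0.11 and the build mm10. Which tool counted reads, with which annotation and whether by strand, is not given in the sources used here. Libraries were grouped by label and numbered by index.

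The main test was edgeR 4.0.16's quasi-likelihood F test under R 4.3.3, on TMM-scaled counts after its default filter, with group as the only term (Benjamini-Hochberg adjustment over all tested genes, threshold 0.05). Log2 fold changes are Axin2-positive over Axin2-negative, and an SE is the log2 fold change divided by the root of F. Alternatives were DESeq2 1.42.0, limma-voom (limma 3.58.1), RLE scaling, no filter, a threshold of 0.01, the replicate block, leaving out each library, and 2 pairs; fits without replicate 2 or 3 were added later. Some fits were run on simulated data. The results of those runs are not given here, so no conclusion about the calls is drawn from them. Exon lengths and coordinates are from GENCODE M21 (GRCm38), promoters from RefSeq. Genes and lists were chosen with earlier results of these data known. Named genes were all 10, and at most 4 of a list, taken from the 2 most abundant and the 2 with the lowest p over 6 libraries; for Ahr, Nr1i2 and Nr1i3, the 3 genes with the highest r; and the zonal genes Axin2, Glul, Cyp2e1, Cyp2f2 and Hal. Any gene named otherwise was picked after its values were seen. The values of 1 listed gene are not reported here.

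Deviations from the group means correlated at 0.68, 0.82 and 0.75 across genes between libraries of the same number, and the shared index is the only source of the pairing. Whether each library had its own mouse is not in the labels, so p-values measure the spread between these libraries. Depth was 75882611 to 103386648 reads.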

Additional observations from a re-analysis of the deposited data

How the results depend on the processing

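The direction of Ahr, Nr1i2, Nr1i3, Rxra, Rxrb, Cyp2b10 and Cyp3a11 held in every fit run. Only Rxrg and Tiparp turned: leaving out 1 library gave log2 fold changes of -0.44 to 0.11 for Rxrg and of -0.63 to 0.16 for Tiparp, and Tiparp was 0.10 (0.0950) without both libraries of replicate 3. The cause was not tested. Over the other genes leaving out 1 library gave 0.24 to 0.94 for Ahr, -0.32 to -0.06 for Nr1i2, 0.24 to 0.66 for Nr1i3, -0.43 to -0.16 for Rxra, -0.28 to -0.14 for Rxrb, -2.13 to -0.09 for Cyp2b10 and 0.72 to 1.87 for Cyp3a11.

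Calls depended on the pair of replicate 1. Over all genes, 0 higher and 0 lower calls became 425 and 497 without it, with the replicate block, and 0 to 1 and 0 to 5 when 1 library was left out. Of the 9 tested genes, 3 higher and 1 lower were called without it: Ahr (0.90, adjusted p = 0.0412), Nr1i3 (0.74, 0.0248) and Cyp3a11 (1.74, 0.00568), and Cyp2b10 (-1.98, 0.0104). Against a fold of 1.5 the 3 became 1. In the lists it called 1 Ahr partner higher, 2 Ahr targets higher and 1 lower, 5 CAR and PXR targets higher, 1 coregulator lower, 5 Cyp3a relatives higher and 1 Cyp2b relative lower, where the fit of 6 libraries called 0. With the replicate block and all 6 libraries, 0 genes were called. CPM on raw totals in place of TMM-scaled ones gave 1 gene wholly above and 1 wholly below in place of 0 and 0. The share of all genes on raw totals is not given. DESeq2, limma-voom, RLE scaling and no filter changed no call over 6 libraries. A threshold of 0.01 could not change one there, because the fit of 6 libraries called 0 genes before it. Over 2 pairs, of Ahr, Nr1i3, Cyp3a11 and Cyp2b10, only Cyp3a11 had an adjusted p under 0.01. For each of the 9 tested genes, an offset of 0.5 CPM moved the mean difference by less than 1 SD. Cyp2b10 in positive library 2 (40 reads) and Ahrr are limited by depth.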
